A study of Drosophila melanogaster with 2 samples.

Results

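The genes of the small (40S) ribosomal subunit were described in a chromatin immunoprecipitation sequencing (ChIP-seq) experiment on CG6813, a zinc finger protein of Drosophila melanogaster. Members were all protein-coding genes of the BDGP6 annotation whose symbol is RpS followed by a digit, together with sta, which encodes the protein called RpSA in other species. Mitochondrial mRpS genes were left out. The rule gave 39 genes of 13968 protein-coding ones, and it used no binding value. The library material was whole embryos of both sexes, aged 0 to 24 h, from a transgenic line with GFP fused to the C-terminus of CG6813, and an anti-GFP antibody was used on sonicated chromatin. There was 1 group with 2 biological replicates, numbered 2 and 3 in the labels. A mixed collection of whole embryos averages all tissues and stages, and the tagged protein stands for the native one. No control library was used here.

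The small subunit decodes mRNA, and the large subunit forms peptide bonds. A cytoplasmic ribosome carries its proteins in fixed proportion, and in flies the loss of 1 copy of many ribosomal protein genes gives the Minute phenotype of slow growth and short bristles. Transcription of these genes in flies often begins at a polypyrimidine stretch, the TCT initiator, in place of the usual initiator. CG6813 belongs to the family of zinc finger proteins with a ZAD, a domain through which such proteins form dimers.

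Many of the sequences around the start sites of small subunit genes show this pyrimidine initiator, in genes with and without a CG6813 peak. Each of the following sequences, from the RefSeq sequence of the dm6 assembly, runs 5′ to 3′ on the gene's strand and ends 10 bases into the transcript. Most begin 60 bases before the annotated transcription start site (TSS). That of RpS25 begins 150 bases before it, and those of RpS27 and RpS4 begin 20 bases before it. Capitals mark a TCT initiator, searched as TCTTTC or TCTTTT or CCTTTC or CCTTTT on the gene's strand with its C within 5 bases of a TSS, and the DNA replication-related element (DRE), TATCGATA, where the window holds one. Where a TSS of the gene carries the initiator, the sequence is the one around such a TSS. For RpS27 this is the TSS at 25247472. The first set holds genes with a strong peak and RpS6. RpS10b and RpS28b have no TCT initiator in this window, and the others of the set have one.
RpS27 (chr3R:25247463-25247492, minus strand): gttggctgcgatttaccccacttCCTTTTc
RpS4 (chr3L:13041781-13041810, plus strand): ggccacaccgcccgcaaatctgCCTTTTcc
RpS10b (chrX:19597971-19598040, plus strand): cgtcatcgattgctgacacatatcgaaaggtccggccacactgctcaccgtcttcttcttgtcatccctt
RpS28b (chrX:9554563-9554632, plus strand): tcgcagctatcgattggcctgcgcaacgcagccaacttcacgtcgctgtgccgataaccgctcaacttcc
RpS25 (chr3R:11216278-11216437, minus strand): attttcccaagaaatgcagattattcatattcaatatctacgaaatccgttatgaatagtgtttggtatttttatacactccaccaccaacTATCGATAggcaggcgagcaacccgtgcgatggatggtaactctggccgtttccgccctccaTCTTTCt
RpS3A (chr4:67198-67267, minus strand): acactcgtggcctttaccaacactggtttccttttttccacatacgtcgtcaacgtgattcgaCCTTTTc
RpS5a (chrX:17148255-17148324, minus strand): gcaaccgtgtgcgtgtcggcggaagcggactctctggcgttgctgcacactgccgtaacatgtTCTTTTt
RpS19a (chrX:16637834-16637903, plus strand): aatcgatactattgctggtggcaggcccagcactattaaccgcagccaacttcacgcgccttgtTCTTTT
RpS6 (chrX:7901322-7901391, minus strand): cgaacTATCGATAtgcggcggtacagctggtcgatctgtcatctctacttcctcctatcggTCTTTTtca

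The second set holds genes without a peak in the thresholded list. RpS3, RpS9 and RpS5b carry the TCT letters, while RpS2, RpS10a and RpS19b do not within 5 bases of the TSS.
RpS3 (chr3R:23358752-23358821, plus strand): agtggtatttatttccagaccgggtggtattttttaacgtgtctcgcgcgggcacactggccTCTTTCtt
RpS9 (chr3L:9511522-9511591, minus strand): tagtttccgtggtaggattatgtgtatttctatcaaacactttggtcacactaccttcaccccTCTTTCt
RpS2 (chr2L:9897543-9897612, minus strand): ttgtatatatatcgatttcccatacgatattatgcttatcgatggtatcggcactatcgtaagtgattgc
RpS5b (chr3R:14901554-14901623, minus strand): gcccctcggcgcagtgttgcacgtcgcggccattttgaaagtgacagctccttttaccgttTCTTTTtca
RpS10a (chr3R:27652700-27652769, plus strand): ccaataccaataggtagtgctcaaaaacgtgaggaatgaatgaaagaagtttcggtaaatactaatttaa
RpS19b (chr3R:23933521-23933590, minus strand): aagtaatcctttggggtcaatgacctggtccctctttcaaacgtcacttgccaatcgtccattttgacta

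CG6813 peaks stood at the promoters of 26 of the 39 genes (66.7%) in the authors' thresholded list of 5012 peaks. The same held for 42 of 54 large subunit genes (77.8%). It held for 14.6% of the 13929 protein-coding genes outside the small subunit, the large subunit genes among them. A gene is called bound here when the summit of a thresholded peak lies at most 500 bp from one of its TSSs. A peak's strength is given by its signal, the value the authors' peak caller wrote for it, which has no stated unit or normalization, so it ranks peaks within 1 list only. The thresholded peaks were the 5012 strongest of the 30000 regions called on both replicates pooled. Depth is unknown because the lists carry no counts. No test was made on these counts, and the share of the other genes stands beside them as the background.

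Each replicate on its own gave a like count. Among the 5012 strongest regions of replicate 2, 26 small subunit genes (66.7%) had a promoter summit, against 14.1% of other protein-coding genes. In replicate 3 there were 28 (71.8%), against 15.9%. The same 26 genes were in both replicates' strongest regions, against 11.4% of other genes. RpS2 and RpS3 were the additional genes in replicate 3. Weaker regions were found at most of the other members too. The full lists were the input from which the thresholded list was made, and the pooled one is labelled as peaks and background. A weak region in them is therefore not by itself a peak. In the full lists of 30000 regions, 36 small subunit genes had a promoter region in replicate 2, against 5568 of the 13929 others. In replicate 3 there were 34, against 43.8% of the others, and in the pooled list 35, against 41.2%. Of the 35 genes with a pooled promoter region, 26 (74.3%) were bound, against 42 of 48 large subunit genes (87.5%) and 35.5% of the other genes that had such a region.

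**Figure D1:**
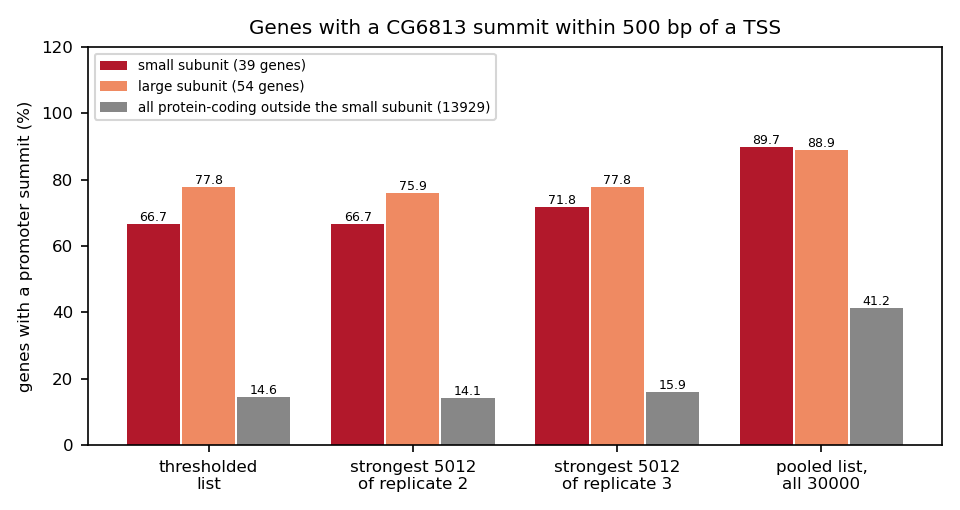
Share of genes (y axis, percent) with a CG6813 summit within 500 bp of a TSS, by region list (x axis), for small subunit genes, large subunit genes and all protein-coding genes outside the small subunit. In the thresholded list the bars stand at 66.7, 77.8 and 14.6%.

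The strongest small subunit peak lay at RpS27 (FBgn0039300), which encodes a zinc-binding protein of the 40S subunit. The peak spans chr3R:25247356-25247675, and its summit lay 10 bp downstream of the TSS at 25247514 and 36 bp upstream of the C of the TCT initiator at the other TSS. Its signal was 829 in replicate 2 and 395 in replicate 3, where it ranked 95 and 54, and 1215 in the pooled list, where it ranked 83. RpS4 (FBgn0011284, chr3L:13041640-13041932) reached 637 in replicate 2 (rank 175) and 297 in replicate 3 (rank 134), and its pooled signal was 936. RpS10b (FBgn0285947, chrX:19597897-19598167) had signals of 596 and 276 in replicates 2 and 3, ranks of 205 and 162, and a pooled signal of 866. These were the 3 members within the 200 strongest pooled regions.

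The next members followed closely in both replicates. RpS28b, whose protein sits near the mRNA exit channel, ranked 347 in replicate 2 and 236 in replicate 3, with a pooled signal of 706. RpS18 ranked 415 and 409 (pooled signal 635), and RpS25, whose protein is needed by some viral internal ribosome entry sites, ranked 397 and 565 (611). RpS16 ranked 504 and 522, with a pooled signal of 566. RpS3A is the only member on chromosome 4, an arm that held 10 of the 5012 thresholded peaks, and reached 336 in replicate 2 (rank 706) and 220.3 in replicate 3 (rank 289), and its pooled signal was 563. RpS5a ranked 642 and 362 with a pooled signal of 552, and RpS19a, the fly counterpart of a gene mutated in human Diamond-Blackfan anaemia, ranked 805 and 283 with a pooled signal of 526. RpS19a had a second thresholded summit 49 bp upstream of a TSS, with a signal of 148.

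The other 16 bound members had pooled signals from 165 at RpS30 to 504 at RpS12, a gene known in flies for its part in the elimination of Minute cells by their neighbours. RpS6, whose protein is the substrate of S6 kinase, had a pooled signal of 229, with ranks of 2179 in replicate 2 and 4327 in replicate 3. RpS27A, which encodes a ubiquitin fusion, had 441, and sta had 482. The median signal of the 26 bound members was 461 (quartiles 238 and 565). The median was 585 for the 42 bound large subunit genes, whose signals ran from 149 to 1458, and 254 for all 2037 bound protein-coding genes outside the small subunit. Of the bound members, 22 (84.6%) lay in the stronger part of the thresholded list, split at its median signal, against 88.1% of bound large subunit genes and 57.3% of the other bound genes. The members therefore stood high in the list without heading it, and large subunit genes had a higher median.

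The bound members stood in like ranges of rank in both replicates, and replicate 3 placed most of them higher. Bound members ranked from 95 to 4862 in replicate 2 (median 929) and from 54 to 4327 in replicate 3 (median 615). A higher place in replicate 3 was found for 21 of 26 bound members (80.8%), 34 of 42 bound large subunit genes (81.0%) and 45.0% of the 2003 other bound genes with a region of each replicate within 200 bp of the summit.

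**Figure D2:**
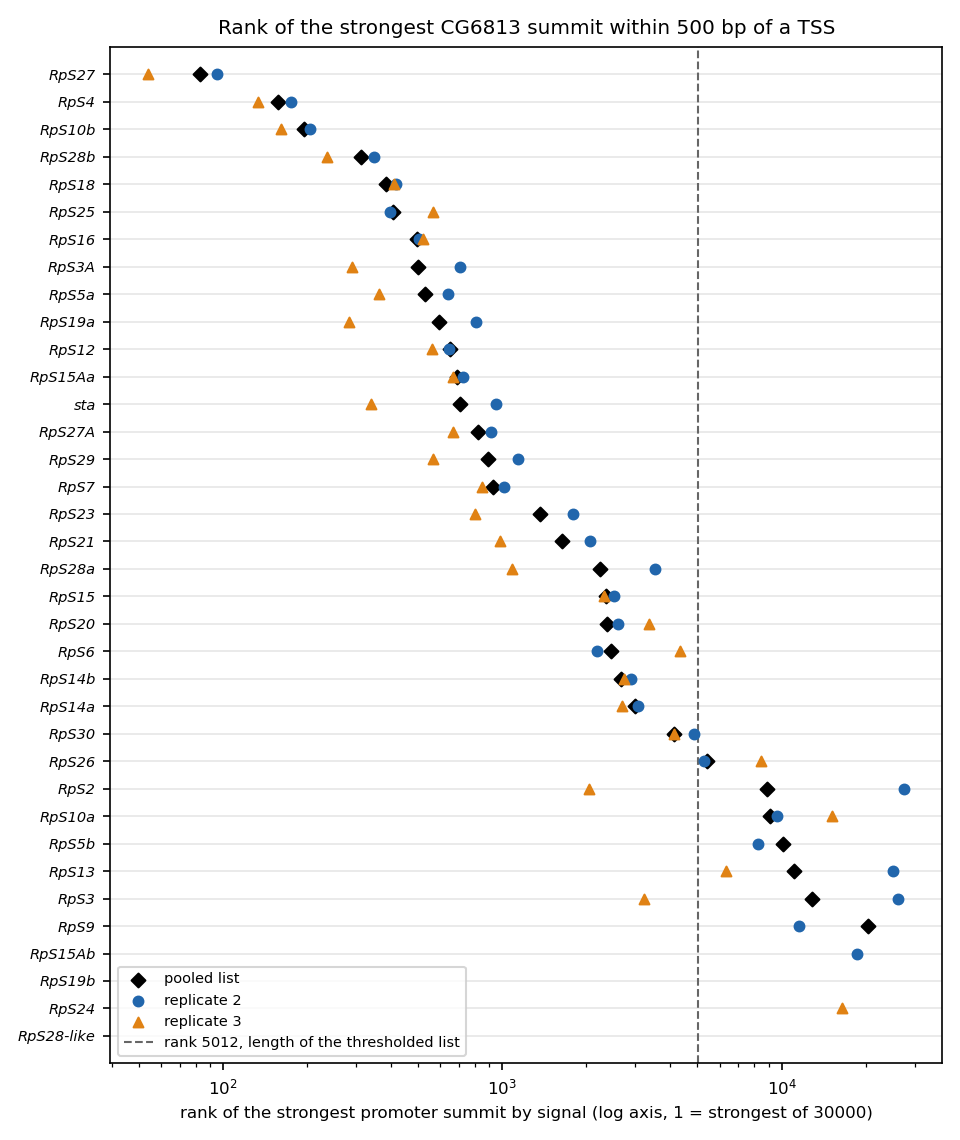
Rank by signal (x axis, log scale, 1 is the strongest of 30000) of the strongest CG6813 summit within 500 bp of a TSS for 36 small subunit genes (y axis), in the pooled list, replicate 2 and replicate 3. The dashed line marks rank 5012. The 25 bound genes drawn lie left of it in all lists, and RpS2 and RpS3 lie left of it in replicate 3 only. A missing point means no summit within 500 bp of a TSS in that list.

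These peaks stood close to the start site. At bound small subunit genes the median summit stood 4.5 bp upstream of the TSS, with quartiles of -24.5 and 14.3 bp (negative is upstream). The median stood 18 bp upstream at bound large subunit genes and 135 bp upstream at all bound genes outside the small subunit. The side of the TSS on which the members' median fell was not stable, since it stood 17 bp downstream from the most 5′ TSS only and 1.5 bp downstream in replicate 3 alone. Within 50 bp of the TSS stood 23 of 26 small subunit summits (88.5%), 35 of 42 large subunit summits (83.3%) and 306 of 2037 other summits (15.0%). Within 25 bp the shares were 61.5, 59.5 and 7.66%. Summits were upstream of the TSS at 14 of 26 bound members (53.8%), at 78.6% of bound large subunit genes and at 81.8% of other bound genes.

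The difference was also present among strong peaks. In the stronger part of the thresholded list, the 2506 strongest peaks, 20 of 22 members had a summit within 50 bp of the TSS (90.9%), against 12.3% of 1168 other genes. Among genes whose peak was at least as strong as the median member's, all 13 members did, against 10.3% of 468 other genes. The replicates read separately showed the same contrast. In the 5012 strongest regions of replicate 2, 84.6% of 26 members and 13.1% of other genes had the strongest promoter summit within 50 bp. In replicate 3 the shares were 78.6% of 28 members and 18.7% of other genes. Large subunit genes, which are counted among the other genes, had high shares too. Of them, 86.5% of 37 had such a summit in the stronger part of the list, and 84.6% of 26 at the median member's strength. In the 5012 strongest regions of replicates 2 and 3 the shares were 87.8% of 41 and 81% of 42. Summits of the replicates lay a median of 11 bp apart at bound members, and 21 bp apart at other bound genes. The accuracy of annotated start sites may differ between gene classes, and its part in this result was not tested. The gene's own TSS was the protein-coding one nearest to the summit at 92.3% of bound members and 80.1% of other bound genes. The part of this difference was not tested either.

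**Figure D3:**
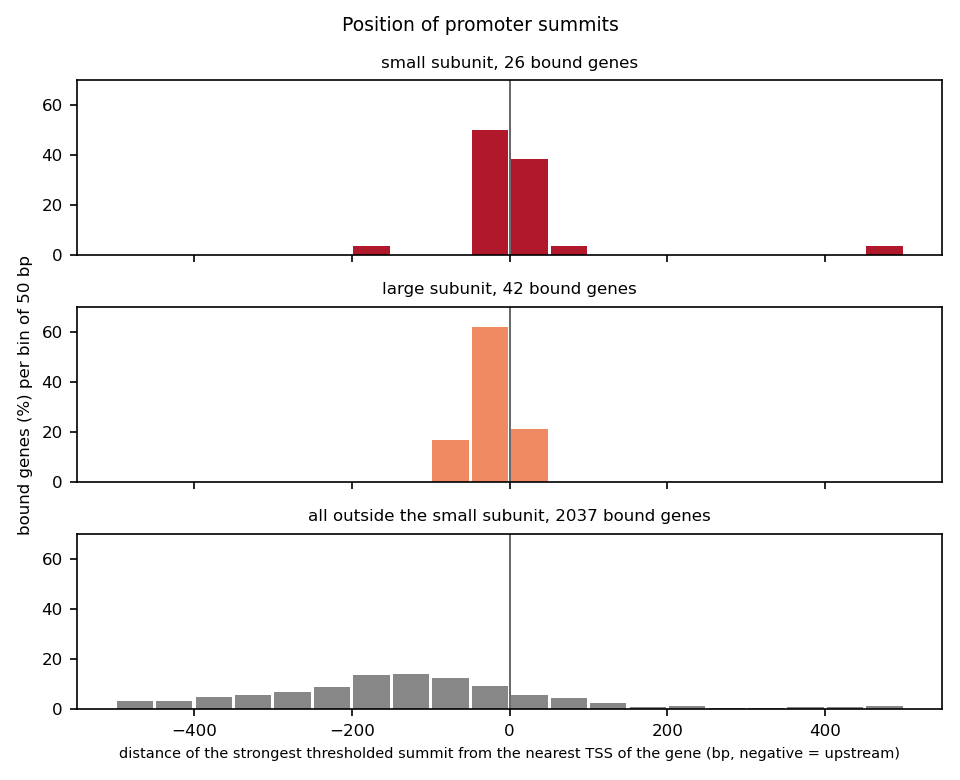
Share of bound genes (y axis, percent) by the distance of the strongest thresholded summit from the nearest TSS of the gene (x axis, bins of 50 bp), for small subunit genes, large subunit genes and all bound genes outside the small subunit. Small subunit summits fill mainly the bins on either side of the TSS, with 88.5% within 50 bp, against 15.0% of the other bound genes.

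At single genes the summit kept close to the TSS, on either side of it. At RpS4 it lay 4 bp downstream of the TSS in the thresholded list, 5 bp downstream in replicate 2 and 4 bp downstream in replicate 3. At RpS10b it lay 1 bp downstream in the thresholded list, and 8 and 14 bp upstream in replicates 2 and 3. At RpS7 the distances were 7, 6 and 5 bp downstream, and at RpS6 they were 21, 19 and 21 bp downstream, in the thresholded list and in replicates 2 and 3. RpS25 was bound 43 bp upstream in the thresholded list and in replicate 2, and 54 bp upstream in replicate 3.

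RpS28a and RpS20 were the exceptions among the bound genes. The RpS28a summit lay 499 bp downstream of its TSS in all lists, just inside the limit of 500 bp. RpS28a is 304 bp long, so this summit lay 196 bp beyond its 3′ end and 72 bp from a TSS of Mgat2, which encodes an enzyme of N-glycan synthesis. Its signal was 125 in replicate 2 and 119.7 in replicate 3. The RpS20 summit lay 190 bp upstream of the RpS20 TSS and 143 bp from the TSS of CG17271, the divergent neighbour, and its signals were 152 (replicate 2) and 66.9 (replicate 3). A weaker pooled region, with a signal of 112, lay 51 bp downstream of the RpS20 TSS. At the other 24 bound members no protein-coding TSS was nearer than the gene's own, with a tie at RpS27A. No summit of these members was more than 67 bp from the gene's own TSS. RpS14a, at 67 bp downstream, was the farthest of these. The gene's own TSS was nearest or tied at 92.3% of bound members, all 42 bound large subunit genes and 80.1% of other bound genes.

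**Figure D4:**
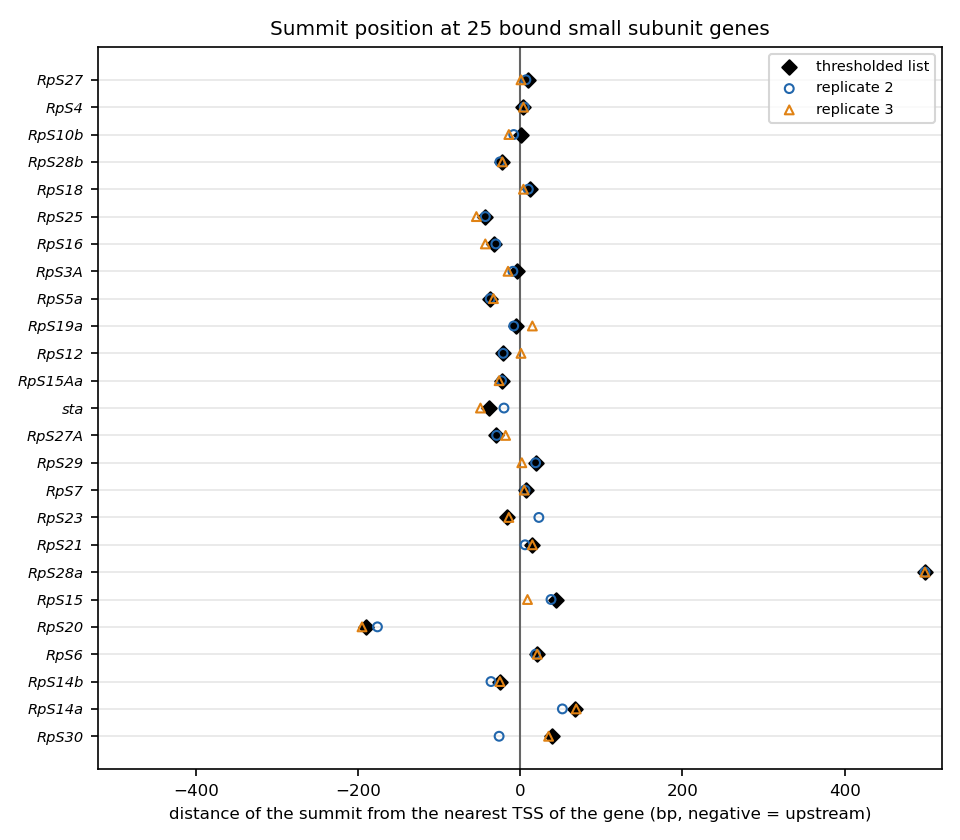
Distance of the strongest summit from the nearest TSS for 25 bound small subunit genes (x axis, bp, negative is upstream), in the thresholded list, replicate 2 and replicate 3. Distances can refer to different TSSs of a gene between lists. All genes drawn but RpS28a, RpS20 and RpS14a have their thresholded summit within 50 bp of a TSS.

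Another protein-coding TSS lay within 500 bp of the summit at 12 of the 26 bound members (46.2%), 45.2% of bound large subunit genes and 42.3% of other bound genes. At RpS27A the TSS of Ip259 lay 30 bp from the summit, as close as the 30 bp to the RpS27A TSS. The summit at RpS27 lay 154 bp from Nup37, that at sta 149 bp from inc, that at RpS25 205 bp from CG4820 and that at RpS18 307 bp from plu. Among bound members, 11 of 26 (42.3%) had a protein-coding gene starting within 500 bp upstream on the opposite strand, beside 45.2% of bound large subunit genes and 38.8% of other bound genes. The same was found for 4 of the 13 unbound members (30.8%) and 24.2% of other unbound genes. Small nucleolar RNA genes, whose products guide rRNA modification, lay inside 11 of 26 bound members (42.3%), 33.3% of bound large subunit genes and 1.72% of other bound genes. They lay inside 2 of 13 unbound members (15.4%) and 0.328% of other unbound genes. RpS5a held 14 of them and RpS7 held 7.

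The 13 members without a thresholded promoter peak fell into those just under the threshold, those at odds between replicates and those with little or no region. RpS26 was just outside, with a pooled signal of 139 and a rank of 5409, where the lowest thresholded signal was 146. It ranked 5265 in replicate 2 and 8416 in replicate 3. The weakest bound members were RpS30, with a pooled signal of 165 and rank of 4136, and RpS14a, with 204 and 2995.

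RpS2, RpS3 and RpS13 differed between the replicates. RpS2, whose protein lines the mRNA entry channel, had its strongest promoter region at rank 27492 in replicate 2, 491 bp upstream of the TSS, and at rank 2048 in replicate 3, 165 bp downstream, so these are different sites. RpS3, also a protein of the entry channel and a DNA repair factor, had a rank of 26045 in replicate 2, with a summit 49 bp downstream. In replicate 3 its strongest region ranked 3212 and lay 328 bp downstream, and another, 50 bp downstream, ranked 6052. RpS13 ranked 24999 in replicate 2 (140 bp downstream) and 6313 in replicate 3 (374 bp downstream), with another region 130 bp downstream at rank 7846. In the pooled list these genes ranked 8870, 12902 and 11040.

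Other unbound members had weak regions, or none with a summit within 500 bp of a TSS. RpS9 had a region at rank 11515 in replicate 2 and none in replicate 3. RpS24 had a region at rank 16428 in replicate 3 and none in replicate 2 or the pooled list. RpS5b, RpS10a, RpS15Ab, RpS19b and RpS28-like are second copies of other members. No summit of any list lay within 500 bp of a TSS of RpS19b or RpS28-like. The nearest thresholded summit was 911 bp from RpS19b and from 1523 bp (RpS3) to 34360 bp (RpS26) from the others.

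Duplicated genes differed in binding, mostly with a peak at 1 copy only. RpS5a, with signals of 351 in replicate 2 and 201 in replicate 3, was bound. RpS5b, a copy known for expression in the germ line, had a signal of 68.9 in replicate 2, 213 bp downstream of its TSS. A second RpS5b region of replicate 2, with a signal of 65.4, lay 52 bp upstream. In replicate 3 RpS5b had no promoter region. RpS10b had signals of 596 and 276, and RpS10a 61.9 and 30.3, at 200 and 259 bp upstream. RpS15Aa had 332 and 152, while RpS15Ab had 40.4 in replicate 2 and no region in replicate 3. RpS19a had 313 and 222, and RpS19b none in either. The proteins of these pairs were 80.9, 73.6, 97.7 and 66.0% identical, in the order named.

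The remaining copies were RpS14 and RpS28. RpS14a and RpS14b, neighbours on X, encode identical proteins of 151 residues, and their coding sequences are 97.8% identical. Both were bound, with signals of 137 (RpS14a) and 142 (RpS14b) in replicate 2 and 75.7 and 75.2 in replicate 3. Their promoter windows, from 250 bases before to 50 after the most 5′ TSS, were 55.0% identical. This was the highest value of the pairs aligned, and the lowest was 46.7%. Unrelated promoters were not aligned for comparison. The sources used here do not say how reads from identical stretches were placed. This limit also holds for RpS15Aa and RpS15Ab, whose coding sequences are 98.2% identical. RpS28b, at 706 in the pooled list, shares 81.5% of its residues with RpS28a, which was bound only through the peak near Mgat2. RpS28b shares 38.2% with RpS28-like, which had no promoter summit in any list.

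Many small subunit promoters, but not all, had a pyrimidine initiator at an annotated TSS, as in many of the printed sequences. The TCT initiator stood at a TSS of 24 of 39 members (61.5%), 31 of 54 large subunit genes (57.4%) and 1.96% of protein-coding genes outside the small subunit. It was present at 18 of 26 bound (69.2%) and 6 of 13 unbound members (46.2%). Its C lay exactly on the annotated TSS in 2 of the 24 genes and in most of the others 2 to 5 bases downstream of it. At the 18 bound members that had it, the summit lay a median of 30 bp upstream of this C, and 15 summits were within 50 bp of it. With 10 bases allowed in place of 5, a setting added after the values were seen, 29 members (74.4%) and 3.89% of other genes had it. These numbers depend on the annotated TSSs, since at the most 5′ TSS alone 12 members (30.8%) and 1.30% of other genes had the word. The contrast between bound and unbound members depends on them too. At the most 5′ TSS alone 8 of 26 bound and 4 of 13 unbound members had the word, 30.8% of each. With 10 bases allowed at any TSS, 22 of 26 bound (84.6%) and 7 of 13 unbound members (53.8%) had it.

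Other words were searched from 250 bases before to 50 bases after the most 5′ TSS, on both strands. DRE, the site of Dref and BEAF-32, stood in 13 of 39 members (33.3%), 27.8% of large subunit genes and 9.29% of other genes. The GAGA word, GAGAG, stood in 4 members (10.3%), 22.2% of large subunit genes and 29.7% of other genes. The initiator TCAGT stood in 8 members (20.5%), 44.4% of large subunit genes and 51.6% of other genes. TATAAA was found in 21 members (53.8%) and 45.7% of other genes. It was found in 17 of 26 bound and 4 of 13 unbound members. For DRE these counts were 10 bound and 3 unbound, for GAGAG 3 and 1, and for TCAGT 4 and 4. The core of Ohler motif 1, GTCACACT, stood in 4 members (10.3%) and 6.60% of other genes, and that of motif 7, CATCNCTA, in 2 (5.13%) and 6.41%. The E-box CAGCTG stood in 6 (15.4%) and 17.6%, and the CA repeat, CACACACA, which can overlap the motif 1 core, in 2 (5.13%) and 4.01%. Median GC content of this window was 37.3% in members and 38.0% in other genes.

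Around the summits some words stood otherwise than at the promoters. Within 100 bp of the summit, DRE stood in 7 of 26 bound members (26.9%), 26.2% of bound large subunit genes and 4.96% of other bound genes. GAGAG stood in 3 (11.5%), 11.9 and 26.8%, and CAGCTG in 5 (19.2%), none of the 42 bound large subunit genes and 13.1%. TATAAA stood in 3 members (11.5%), 26.2 and 35.8%, while in the promoter window it stood in 65.4% of bound members and 43.6% of other bound genes. These windows are centred close to the TSS in members and mostly farther upstream in the other bound genes. A match describes letters only and is not evidence that a factor binds there.

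**Figure D5:**
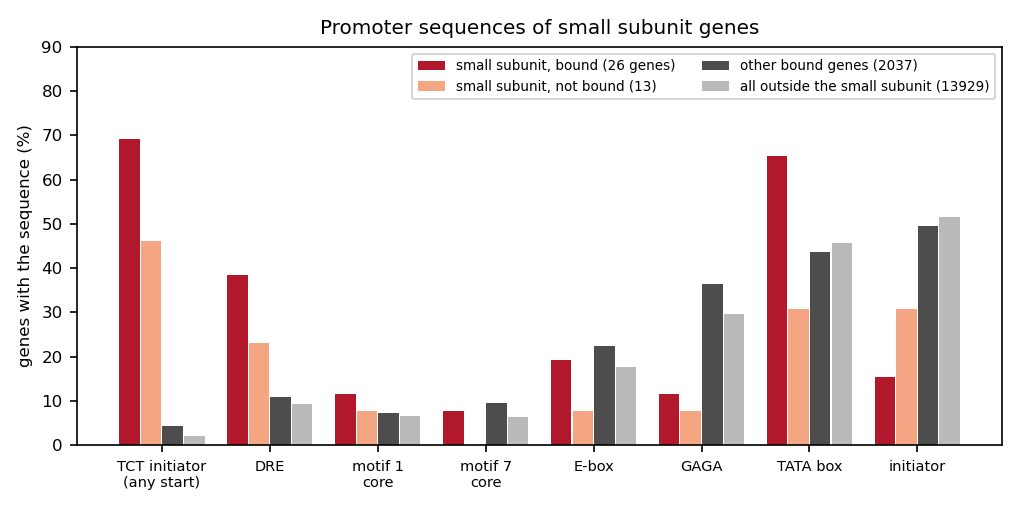
Share of genes (y axis, percent) with each sequence word, for bound and unbound small subunit genes, other bound protein-coding genes and all protein-coding genes outside the small subunit. The TCT initiator was searched within 5 bases of any TSS, and the other words from 250 bases before to 50 after the most 5′ TSS. The TCT initiator stands at 69.2% of bound and 46.2% of unbound small subunit genes, and at 4.37% of other bound genes. At the most 5′ TSS alone, not drawn, it stands at 30.8% of bound and 30.8% of unbound small subunit genes.

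Of the genes that work with the small subunit, Rack1 and 3 others were bound. Rack1, a 40S protein outside the naming rule, was bound 7 bp upstream of its TSS with a pooled signal of 739, which would place it among the 5 strongest members. Of 13 genes for small subunit processing and nucleolar RNA modification, 3 were bound and 11 had a pooled promoter region, beside the background of 14.6% and 41.2%. The bound ones were NHP2 (signal 388, 202 bp upstream), Nopp140 (228, 75 bp upstream) and Fib, which encodes the rRNA methyltransferase fibrillarin (198, 59 bp upstream). Nop56, nop5, hoip, bys, RIOK1, wcd, Nop60B and Nnp-1 had pooled signals of 69.2 to 118, and 2 genes, RIOK2 among them, had no pooled promoter region.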

How the data were processed

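ChIP-seq of GFP-tagged CG6813 was available for replicates 2 and 3, which the labels call biological. The authors deposited region lists on dm6 and dm3. Per the deposited file listing, the replicate and pooled lists were input to an irreproducible discovery rate step, the thresholded list was its optimal set, and a control was used in calling. The pooled list is labelled as holding peaks and background. The sources used here name no aligner, caller or cutoff. The signal is the value the authors deposited per region, with no stated normalization. Only dm6 was used, since no coordinate was converted.

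A summit was the region start plus the deposited summit position. Gene models were Ensembl release 115 (BDGP 6.54) without transposable elements, and sequences came from RefSeq's Release 6, the assembly of dm6. The last region of every arm ended inside the RefSeq sequence. The strongest summit within 500 bp of any TSS was taken per gene, with the distance from the nearest TSS of that gene. Replicate summits were matched within 200 bp. Proteins were translated from the longest coding sequence and aligned globally, with identity over the longer sequence. Python 3.11.15, pandas 2.3.3, numpy 2.4.6, Biopython 1.88 and matplotlib 3.10.9 were used. The assignment was checked on 200 simulated summits, all returned as placed. Members, lists, words and the naming rule were chosen with earlier results of these data known, so no test was made. Values were named for the 10 strongest members, all copies and the unbound members, except that 3 members are counted but not reported singly here, and genes named beyond these were chosen after their values were seen. Alternatives covered the promoter window, the threshold, each replicate, the TSS and the peak definition.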

Additional observations from a re-analysis of the deposited data

How the results depend on the processing

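No paired analysis was possible because there was 1 group. The number of bound small subunit genes ran from 22 in the stronger part of the list to 35 with all pooled regions, and that of large subunit genes from 37 to 48. Without replicate 2 there were 28 small subunit genes, RpS2 and RpS3 in addition, and without replicate 3 there were 26. Windows of 200 bp lost RpS28a, and windows of 1000 bp added RpS19b. Counting only genes whose own TSS is nearest or tied, a setting added after the data were seen, left 24. In all 9 planned settings 21 members were bound, and RpS15Ab, RpS24 and RpS28-like were bound in none. The share of other genes was 9.70% with windows of 200 bp, 18.2% with 1000 bp, 8.39% in the stronger part of the list, 41.2% with all pooled regions, 12.1% with the most 5′ TSS only, 16.2% when any base of the region counted, 11.7% with own TSS nearest, 15.9% without replicate 2 and 14.1% without replicate 3. The median signal of bound members was 299 with all pooled regions, which adds weaker ones by construction, 152 without replicate 2 and 289 without replicate 3, each on its own list's scale. The median offset was 1.5 bp without replicate 2 and -8.5 bp without replicate 3. From the most 5′ TSS only it was 17 bp downstream, with 73.1% of members and 14.9% of other genes within 50 bp. At that TSS 12 members had the TCT initiator. Depth is unknown and 2 replicates allow no error for a single peak.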

Other observations

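Binding of small subunit genes differed between chromosome arms in number, a split looked at after the values were seen and not tested. On X all 9 members were bound, beside all 6 large subunit genes and 13.9% of other protein-coding genes of that arm. On 3R 8 of 12 were bound (15.2% of other genes), on 2R 4 of 7 (14.1%), on 3L 2 of 4 (15.0%) and on 2L 2 of 6 (15.0%). Of large subunit genes, 72.7% were bound on 3R, 78.6% on 2R, 80.0% on 3L and 69.2% on 2L. The single member on chromosome 4, RpS3A, was bound, beside 3.80% of other genes there.

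Bound members had more annotated start sites and were longer than unbound ones. They had 1.85 TSSs on average, against 1.38 in unbound members, and the median gene length was 1510 bp against 1132 bp. Other bound genes had 1.96 TSSs, against 1.31 in other unbound genes, and median lengths of 4069 and 1991 bp. Bound large subunit genes had 1.76 TSSs, against 1.5 in unbound ones, and median lengths of 1347 and 1132 bp. Differences in the same direction thus stood in the background. With the most 5′ TSS only, the same 26 members and 12.1% of other genes were bound.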
